A study of Mus musculus with 30 samples.

Results

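Mesenchymal stromal cells grown from the compact bone of mice given the mutagen ENU were compared with those of mock-treated mice. The comparison uses 6 of the 30 libraries of the series, all 6 deposited as 1 table of TPM (transcript abundance scaled for gene length and library total). The 3 ENU libraries came from C57BL/6 mice injected intraperitoneally with 100 mg/kg ENU, and the 3 mock libraries from C57BL/6 mice injected with 10% ethanol. All had wild-type marrow, with no haploinsufficiency, transplant, shRNA or disease, and their cells were taken 1 month after injection. Compact bone was digested with collagenase, and the cells were grown in MesenCult medium to passage 1 or 2 before RNA was isolated. The sources used here do not give the passage of each library or the age and sex of the donor mice. Libraries are named by group and number, as ENU 1 to 3 and mock 1 to 3. Nothing in the labels says that these were separate cultures of separate mice, so p-values measure the spread between libraries only.

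ENU, N-ethyl-N-nitrosourea, transfers ethyl groups to DNA bases and causes point mutations and cell death, as alkylating chemotherapy does. Stromal cells of the bone and marrow are the supporting cells of blood formation. They can become bone, fat or cartilage cells, lay down extracellular matrix and secrete the factors, such as Cxcl12 and Kit ligand, that hold and feed blood stem cells. The comparison addresses whether RNA levels in these cells differ after exposure of the animal and a period in culture.

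No gene separated the groups at the threshold used. Of 12089 genes tested with limma on log2(TPM + 1), 0 had a Benjamini-Hochberg adjusted p under 0.05 (0% called), and the smallest adjusted p was 0.9998. At an unadjusted p under 0.05 there were 312 genes (2.58%). With the number shared by an ENU and a mock library as a block, again 0 genes passed (0%), with a smallest adjusted p of 0.4378, while 1213 (10.0%) had an unadjusted p under 0.05, 556 of them higher and 657 lower in ENU. Everything below is therefore a description of values that did not pass, and "higher" or "lower" gives the side of the ENU libraries only.

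Counts of 2 kinds are used to describe gene groups. In 339 genes (2.80%) all 3 ENU libraries lay above all 3 mock libraries, and in 516 (4.27%) all 3 lay below. In 2138 genes (17.7%) each ENU library was above the mock library of its own number, and in 2364 (19.6%) each was below. The median log2 difference over all tested genes was -0.005. Counts for the gene groups below are to be read beside these shares over all genes. Genes of a group can move together, so a count of members is not a count of independent results.

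The number of the library went with more of the variation than the treatment did. Over the tested genes, the replicate number took 71.0% of the sum of squares, the treatment 13.7% and the remainder 15.3%. On the first principal component, which held 59.7% of the variance, ENU 3 stood at 40.7 and mock 3 at 55.2, while the other 4 libraries lay between -29.6 and -17.4. Both libraries numbered 3 were above all 4 others in 2775 genes (23.0%) and below all 4 in 3710 (30.7%). They were low in all 25 mitosis genes and in 25 of 26 replication genes, in 10 of 12 smooth muscle and contractile genes and in 18 of 23 cholesterol genes, and high in 15 of 22 immediate early genes. Values without both libraries are given for the complement and mitosis genes.

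**Figure D1:**
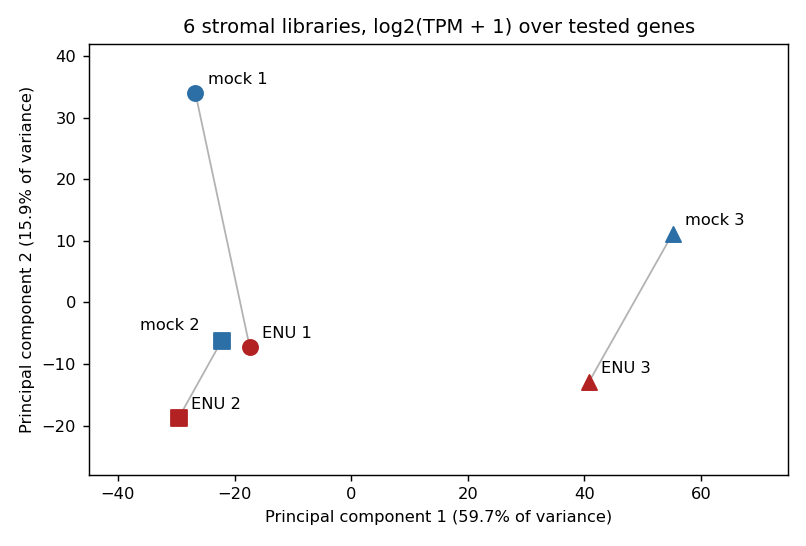
The 6 stromal libraries on the first and second principal components of log2(TPM + 1); red points are ENU and blue points mock, the symbol gives the number, and grey lines join libraries of the same number. ENU 3 and mock 3 lie at 40.7 and 55.2 on the first axis, apart from the other 4.

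Transcripts from the Y chromosome were not spread evenly over the groups. Summed over Ddx3y, Uty, Eif2s3y and Kdm5d, they reached 197, 134 and 206 TPM in ENU 1 to 3, against 0.235, 0.224 and 205 TPM in mock 1 to 3. Y-linked RNA was thus near 0 in mock 1 and mock 2 and present in all 3 ENU libraries and mock 3. For these 2 mock libraries the presence of Y-linked RNA cannot be told apart from the treatment, and the ENU and mock libraries numbered 1 and 2 do not match in it. Where a value in mock 3 sits with mock 1 and mock 2, this is stated for the leading genes. Mock 3 is 1 library, and only ENU 3 matches it in both number and Y-linked RNA. A comparison with Y-linked RNA present in both groups therefore rests on mock 3 alone. That is too little to separate Y-linked RNA from the treatment.

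Markers of the labelled cell type were abundant in all 6 libraries. The 20 stromal identity genes summed to 6617, 7348 and 3547 TPM in ENU 1 to 3 and to 7132, 7290 and 4981 TPM in mock 1 to 3. Ptprc, the pan-leukocyte antigen CD45, did not exceed 1.29 TPM in any library, and the T lymphocyte gene Cd3e was at 0 in all 6. Libraries numbered 2 held the most endothelial RNA: the 12 endothelial markers summed to 21.7, 48.4 and 27.8 TPM in ENU 1 to 3 and to 29.9, 94.2 and 36.0 TPM in mock 1 to 3. The 18 macrophage markers summed to 68.3, 168 and 76.8 TPM in ENU and 61.5, 110 and 119 TPM in mock, where Cd68 alone gave 91.4 TPM in mock 3. Of the 10 tested, 4 (Fcer1g, Tyrobp, Laptm5 and Ctss) were above in all 3 pairs and 0 below (17.7% and 19.6% of all genes). In pair 3, Tyrobp, Laptm5 and Ctss stayed under 1 TPM in both libraries. The defining macrophage gene Adgre1 was at 2.23 TPM in ENU 2 and 0.870 TPM in mock 2 and at or next to 0 in the rest. The myeloid granule genes Mpo, Elane and S100a9 were at 6.99, 4.14 and 24.4 TPM in ENU 2, and none of these 3 exceeded 0.192 TPM in another library. S100a8, which encodes the partner of S100a9, was present in every library, at 5.88, 49.4 and 8.44 TPM in ENU and 25.4, 10.3 and 1.43 TPM in mock. Adipocyte genes summed to 2467, 2548 and 3046 TPM in ENU 1 to 3, against 7807, 3929 and 1509 TPM in mock 1 to 3. The part of these cells in the results was not tested. In bulk RNA, fewer cells of a type and less RNA per cell cannot be told apart.

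**Figure D2:**
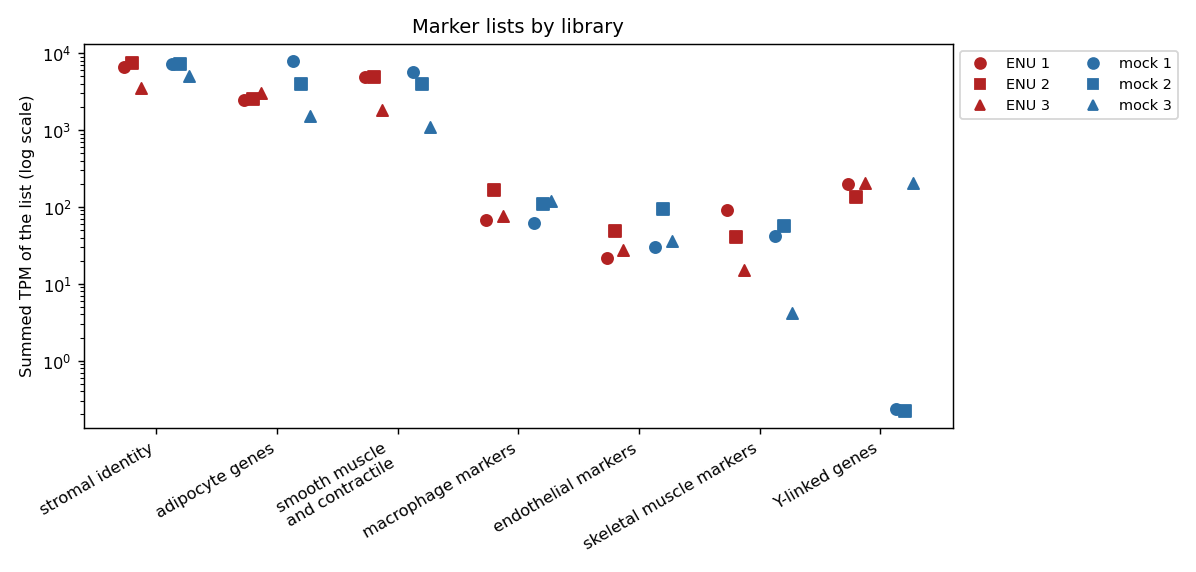
Summed TPM (log scale) of 7 marker lists in each library, ENU (red) left of mock (blue), with the symbol giving the number. The Y-linked genes are at 134 to 206 TPM in the ENU libraries and mock 3 and near 0.2 TPM in mock 1 and mock 2; endothelial markers are highest in the libraries numbered 2.

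Several genes of secreted complement and acute phase proteins were lower in ENU, and C1s1, Serpina3n and C3 were among those lowest in unadjusted p. Complement is a cascade of plasma proteases whose first enzymes, C1r and C1s, cut C4, and whose central protein C3 is split to tag targets for removal. Stromal cells make many of its parts. C1s1, one of the mouse C1s genes, lies at chr6:124530345-124542359 on the minus strand (GRCm38, GENCODE M21). It was at 64.5, 87.8 and 58.7 TPM in ENU 1 to 3 and at 168, 185 and 202 TPM in mock 1 to 3. The means were 70.3 ± 15.4 and 185 ± 17.4 TPM (SD, n = 3 each), and the groups lay well apart. The log2 difference was -1.40 ± 0.17 (SE), with an unadjusted p of 0.000203 and an adjusted p of 0.9998 in limma over all genes. It is the smallest unadjusted p on the lower side.

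Serpina3n, a secreted serine protease inhibitor of the acute phase (chr12:104406729-104414329), was at 13.5, 22.0 and 33.7 TPM in the ENU libraries, against 102, 93.1 and 120 TPM in the mock libraries. Its log2 difference was -2.22 ± 0.32 (SE). C3 (chr17:57203970-57228136) was at 2.70, 7.85 and 3.69 TPM in ENU and at 32.8, 26.1 and 16.4 TPM in mock, a log2 difference of -2.23 ± 0.40. In neither gene did any library of one group reach the range of the other. C1ra, the C1r protease beside C1s1 on chromosome 6, was at 81.4, 99.3 and 62.7 TPM against 124, 153 and 260 TPM in mock (-1.09 ± 0.31). C4b, the substrate of C1s, was at 18.8, 68.7 and 15.5 TPM in ENU and 99.8, 127 and 72.0 TPM in mock (-1.79 ± 0.58), so that ENU 2 came close to mock 3. C4b and Serpina3n have close paralogs, and the sources used here do not say how reads shared with them were counted.

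Mock 3, which carries Y-linked RNA as the ENU libraries do, had 202 TPM of C1s1, 120 of Serpina3n and 16.4 of C3, in each case on the side of mock 1 and mock 2. Without both libraries numbered 3 the log2 differences were -1.216 for C1s1, -2.431 for Serpina3n and -2.405 for C3. All 3 genes also lay below their same-numbered mock library in every pair.

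Of 19 complement and acute phase genes tested, 5 lay below without overlap and 0 above (4.27% and 2.80% of all genes). The 5 were C1s1, C3, C1ra, C4b and Cd55, the last an inhibitor of the cascade on the cell surface. In 7 every ENU library was below its number's mock library and in 2 above (19.6% and 17.7% of all genes). By the sign of the log2 difference 12 were lower and 7 higher. The list's median log2 difference was -0.486, and its medians in pairs 1 to 3 were -0.290, -0.622 and -0.132. Not every member followed. The acute phase protein Hp was at 955, 1332 and 345 TPM in ENU and 1281, 1613 and 184 TPM in mock, and Saa3 at 9.28, 29.5 and 12.2 TPM against 8.44, 367 and 8.98 TPM. Hp, Saa3 and Cd55 were chosen after their values were seen. Lbp, a secreted binding protein for bacterial lipopolysaccharide chosen in the same way, was at 25.5, 30.6 and 13.2 TPM in ENU and 51.2, 65.5 and 36.2 TPM in mock. Lbp and Serpina3n, both without overlap, are not among the 19 genes of the list. Il1r1, the receptor for interleukin 1, was lower in each pair, at 29.9, 31.3 and 12.9 TPM against 59.9, 59.1 and 23.7 TPM in mock, with overlap.

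The 250 bases before the start of C1s1, C3 and Serpina3n are shown, from RefSeq on GRCm38.p6 (the mm10 assembly). Inflammatory factors of the C/EBP and NF-kB families are known to act on such genes. Capitals mark matches to the C/EBP core TTGCNNAA or to the NF-kB core, which is GGG, any 2 bases and TTTCC, on either strand. The windows are chr6:124542360-124542609 (minus strand), chr17:57228137-57228386 (minus strand) and chr12:104406458-104406707 (plus strand).
C1s1: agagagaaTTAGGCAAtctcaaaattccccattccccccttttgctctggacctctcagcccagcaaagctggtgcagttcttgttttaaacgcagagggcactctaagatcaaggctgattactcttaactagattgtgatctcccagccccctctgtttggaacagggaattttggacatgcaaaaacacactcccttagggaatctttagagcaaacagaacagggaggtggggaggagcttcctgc
C3: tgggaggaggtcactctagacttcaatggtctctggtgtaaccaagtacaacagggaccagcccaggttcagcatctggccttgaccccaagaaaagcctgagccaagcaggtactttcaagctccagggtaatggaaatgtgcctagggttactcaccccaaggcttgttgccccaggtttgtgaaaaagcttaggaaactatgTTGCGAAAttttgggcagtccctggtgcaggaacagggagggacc
Serpina3n: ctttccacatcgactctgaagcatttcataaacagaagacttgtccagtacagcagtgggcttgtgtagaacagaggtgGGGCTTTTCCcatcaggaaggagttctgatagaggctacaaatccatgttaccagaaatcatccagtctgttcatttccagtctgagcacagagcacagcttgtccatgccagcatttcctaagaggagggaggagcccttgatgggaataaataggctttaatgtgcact
C1s1 and C3 each held 1 C/EBP match and 0 NF-kB matches, and Serpina3n held 1 NF-kB match and 0 C/EBP matches. C1ra, whose window is not shown, held 0 matches to either core. Among 27025 genes with an entry, 9.55% held the C/EBP core and 1.40% the NF-kB core in the same window. Among the tested genes with an entry the shares were 7.45% and 1.46%. Of the 19 complement genes tested, 11 had an entry. Of these, 4 held the C/EBP core (36.4%) and 0 the NF-kB core. A match of these letters is a description and not a bound site.

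Other genes with the smallest unadjusted p on the lower side had varied roles. Kdm1a, the lysine demethylase LSD1, was at 8.63, 8.63 and 6.07 TPM in ENU and 16.4, 16.7 and 15.3 TPM in mock (log2 difference -0.98 ± 0.16). Man1a trims mannose from glycoproteins and was at 45.3, 49.0 and 53.9 TPM against 90.2, 72.4 and 80.5 TPM. Abi3bp, a matrix protein, was at 39.6, 43.8 and 34.4 TPM against 75.9, 83.6 and 138 TPM. All 3 were without overlap between the groups.

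On the higher side the smallest unadjusted p belonged to Pgd, phosphogluconate dehydrogenase of the pentose phosphate pathway, which makes NADPH. It was at 124, 112 and 129 TPM in ENU and at 81.7, 77.6 and 79.3 TPM in mock, with means of 122 ± 9.0 and 79.5 ± 2.04 TPM (SD, n = 3 each). Its log2 difference was 0.60 ± 0.09 (SE, unadjusted p = 0.000603, adjusted p = 0.9998 in limma). Fgd3, an exchange factor for Cdc42, was at 29.8, 24.5 and 22.2 TPM in ENU and 10.5, 13.8 and 8.89 TPM in mock. Gprc5c, an orphan receptor, was at 17.8, 20.3 and 16.2 TPM against 6.63, 9.73 and 5.4 TPM. Acot7, a thioesterase of acyl-CoA, was at 105, 93.6 and 92.0 TPM against 66.1, 71.8 and 60.3 TPM. The ubiquitin ligase gene Herc3 was at 18.5, 23.7 and 19.3 TPM against 9.93, 13.9 and 11.1 TPM. None of these overlapped, and in none was mock 3 nearer to the ENU range than both other mock libraries.

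**Figure D3:**
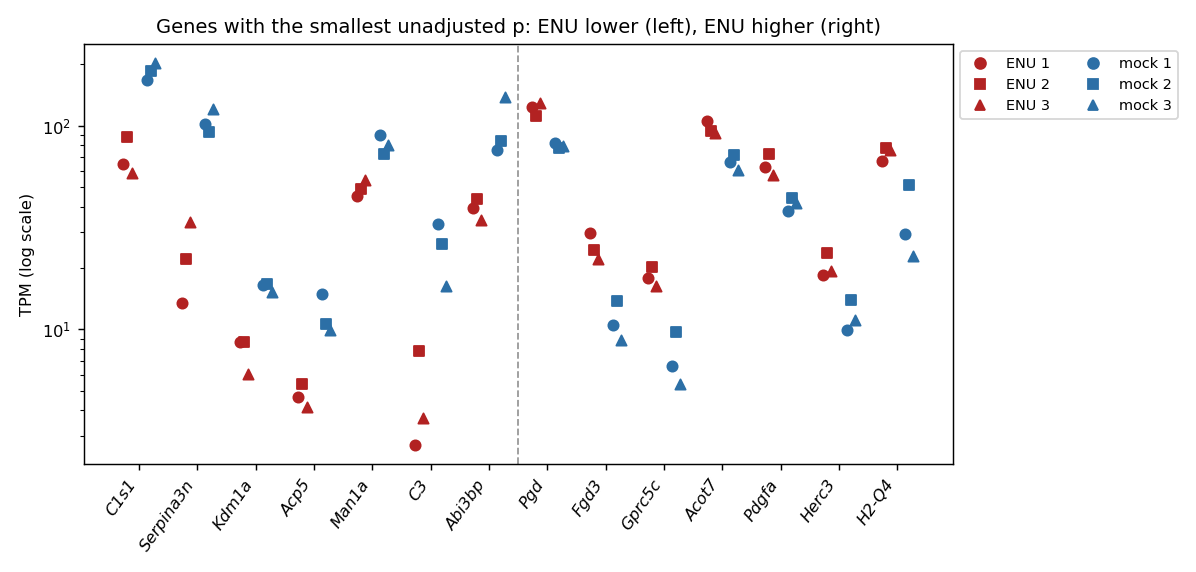
TPM (log scale) of 14 of the genes with the smallest unadjusted p, 7 lower in ENU (left of the dashed line) and 7 higher, with ENU (red) left of mock (blue) for each gene and the symbol giving the library number. The groups do not overlap in any of the 14, and none passed adjustment.

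Matrix lists differed among themselves. Of 24 matrix glycoproteins and proteoglycans tested, 8 were below in all 3 pairs and 1 above (19.6% and 17.7% of all genes). Below without overlap were 2 (4.27% of all genes), and the median log2 difference was -0.214. Efemp1, the fibulin-3 of elastic fibres, was at 398, 463 and 502 TPM in ENU and 614, 671 and 659 TPM in mock (-0.52 ± 0.12). Fbln1, fibulin-1, was at 13.3, 14.3 and 6.88 TPM against 23.2, 23.7 and 43.2 TPM (-1.31 ± 0.35). Mfap5, a microfibril protein, was at 15.4, 27.0 and 6.75 TPM in ENU and 154, 49.3 and 26.0 TPM in mock, with ENU 2 just above mock 3. Comp, the cartilage oligomeric matrix protein of tendon and cartilage, was at 502, 195 and 567 TPM in ENU and 1111, 866 and 3586 TPM in mock (-1.98 ± 0.66). Comp was the only chondrocyte gene of 11 without overlap, and Col2a1, the main cartilage collagen, was at 1239, 751 and 2403 TPM against 537, 1007 and 537 TPM. Of 13 genes of matrix crosslinking and processing, 3 were above in all pairs and 3 below, with a median of -0.044. Among 18 matrix proteases and inhibitors, 1 was above in all pairs and 3 below, with a median of -0.011. Of 17 fibrillar and network collagens, 4 were below in all pairs, 1 was above and 0 lay apart without overlap. Collagen genes together took 0.935 ± 0.240% of TPM in ENU and 0.898 ± 0.241% in mock (SD, n = 3 each; exact two-sided permutation p = 1.0, where 0.1 is the smallest that 3 against 3 allows).

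Secreted growth and niche factors went to both sides. Pdgfa, a growth factor for stromal cells, was at 62.4, 72.2 and 57.4 TPM in ENU and 38, 44.3 and 41.7 TPM in mock (0.62 ± 0.12). Gas6, the ligand of the Axl, Tyro3 and Mertk receptors, was at 406, 345 and 271 TPM in ENU and 624, 562 and 586 TPM in mock (-0.81 ± 0.17). Igf1, an insulin-like growth factor, was at 7.35, 3.86 and 1.09 TPM against 15.5, 10.9 and 15.7 TPM (-1.76 ± 0.51). Il7, the cytokine of early lymphocytes, was at 8.38, 7.07 and 7.78 TPM in ENU and 4.18, 6.15 and 2.39 TPM in mock (0.80 ± 0.29). These 4 were without overlap. The central retention factors did not separate: Cxcl12 was at 2126, 2517 and 459 TPM against 1200, 2795 and 900 TPM, and Kitl at 187, 176 and 110 TPM against 111, 177 and 93.8 TPM. Of 23 niche factors tested, 2 lay above and 3 below without overlap (the third being Csf1, the macrophage growth factor), with a median of 0.098. Over all genes 2.80% lay above and 4.27% below in this way. In the IGF axis 3 of 15 lay below without overlap, among them the binding protein Igfbp6 at 181, 111 and 115 TPM in ENU and 236, 181 and 526 TPM in mock.

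Surface antigens of the stromal lineage were lower for some members. Ly6a, which encodes Sca-1, was at 711, 934 and 752 TPM in ENU and 1439, 1234 and 1060 TPM in mock (-0.64 ± 0.18) without overlap. Thy1, or CD90, was lower in each pair, at 22.4, 86.4 and 0.708 TPM against 242, 175 and 34.7 TPM, but its groups overlapped. Pdgfra, another surface marker, was at 82.1, 102 and 39.3 TPM in ENU and 100, 158 and 86.5 TPM in mock. Of 18 stromal identity genes, 6 were below in all 3 pairs and 2 above (19.6% and 17.7% of all genes). Below without overlap lay 1, near the 4.27% of all genes. By the sign of the log2 difference 10 of the 18 were lower and 8 higher.

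Genes of the osteoblast, the bone-forming cell, were higher in part of the list. By the sign of the log2 difference 10 were higher and 7 lower. Of 17 tested, 7 were above in all 3 pairs and 0 below (17.7% and 19.6% of all genes), and 2 were above without overlap (2.80% of all genes). The median log2 difference was 0.490, with 0.796, 0.523 and 0.058 in pairs 1 to 3. Bglap2, an osteocalcin gene, was at 24.8, 27.6 and 48.0 TPM in ENU and 15.8, 16.9 and 15.0 TPM in mock (0.97 ± 0.25). Dlx5, a transcription factor of bone formation, was at 23.0, 14.6 and 13.7 TPM against 9.51, 10.6 and 11.5 TPM (0.62 ± 0.22). Bglap and Bglap2 are near copies of each other, and Bglap was at 8.41, 15.5 and 16.9 TPM in ENU and 9.56, 3.61 and 3.67 TPM in mock. Sp7, or osterix, was at 79.6, 49.3 and 34.3 TPM against 43.5, 34 and 9.89 TPM. Alpl, the alkaline phosphatase that allows mineral to form and a gene chosen here after its values were seen, was at 268, 374 and 26.5 TPM in ENU and 74.3, 166 and 8.13 TPM in mock. Its level differed more between numbers than between groups, so the groups overlapped, yet the pair differences were alike (unadjusted p = 0.000339 and adjusted p = 0.4378 in limma with the block). Runx2, the earlier bone regulator, was at 32.3, 29.5 and 15.8 TPM against 16.9, 17.8 and 21.1 TPM, with pair 3 on the other side. Collagen I genes of the same list did not follow: Col1a1 was at 1525, 1685 and 361 TPM in ENU and 2146, 912 and 731 TPM in mock.

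Among genes best known from the osteoclast, the bone-resorbing cell, 2 of 4 tested lay below without overlap and 0 above. Over all genes 4.27% lay below and 2.80% above in this way. Acp5, the tartrate-resistant acid phosphatase, was at 4.66, 5.38 and 4.18 TPM in ENU and 15.0, 10.6 and 9.96 TPM in mock (-1.15 ± 0.19). Ctsk, cathepsin K, was at 150, 171 and 140 TPM against 205, 184 and 224 TPM (-0.41 ± 0.12). Of the 9 osteoclast markers, 5 (Calcr, Dcstamp, Ocstamp, Mmp9 and Oscar) stayed under 1 TPM in all 6 libraries, with a highest value of 0.387 TPM. The other 2 tested overlapped between the groups. Atp6v0d2, a subunit of the proton pump, was at 0.995, 0.850 and 8.71 TPM in ENU and 0.673, 1.37 and 16.1 TPM in mock, highest in the libraries numbered 3. Nfatc1, a transcription factor of osteoclast formation, was at 32.7, 21.6 and 58.6 TPM in ENU and 22.3, 22.6 and 36.8 TPM in mock. Adipocyte genes depended on the pair, with list medians of -0.782, -0.511 and 0.934 in pairs 1 to 3. Adipoq, the adipocyte hormone adiponectin, was at 101, 83.5 and 217 TPM in ENU and 368, 157 and 113 TPM in mock.

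Genes that present antigen on MHC class I were higher in ENU within pairs. Of 15 genes of interferon gamma and antigen presentation tested, 8 were above in all 3 pairs and 1 below (17.7% and 19.6% of all genes). Above without overlap lay 1 (2.80% of all genes), and the median was 0.433. Nlrc5, the activator of class I genes, was at 23.4, 17.7 and 15.5 TPM in ENU and 7.62, 9.94 and 3.44 TPM in mock (1.39 ± 0.36). H2-K1, a class I heavy chain, was at 266, 404 and 237 TPM against 161, 283 and 142 TPM (0.66 ± 0.32). H2-D1 was at 459, 622 and 331 TPM against 268, 440 and 258 TPM (0.54 ± 0.31), and Tap1, the peptide transporter, at 20.6, 29.7 and 18.2 TPM against 14.2, 22.0 and 13.7 TPM (0.43 ± 0.25). In these 3 genes library 2 was the highest of each group, so the groups overlapped while each pair gave the same side. The non-classical H2-Q4 was at 67.3, 77.5 and 75.6 TPM in ENU and 29.5, 50.8 and 22.9 TPM in mock, without overlap. H2 genes share long stretches of sequence, and the split of reads between them is uncertain. Macrophage markers lay to the same side, with 4 of 10 above in all pairs (17.7% of all genes were). Fcer1g, the most abundant of these 4 in every ENU library, was at 6.15, 14.2 and 5.18 TPM in ENU and 2.90, 9.05 and 0.233 TPM in mock. Their part in the antigen presentation result was not tested. Irf1, the factor through which interferon gamma acts on many of them, was at 19.3, 26.3 and 13.8 TPM against 17.3, 25.8 and 15.9 TPM. The 20 type I interferon genes tested had 1 above in all pairs and 0 below, with a median of -0.190.

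Proliferation genes were higher in every pair by amounts that differed between pairs. All 25 mitosis genes were above in all 3 pairs, where 17.7% of all genes were. Of the 25, 0 were without overlap, with both libraries numbered 3 far below the rest. The members thus moved together between libraries, and their count is not one of independent genes. The list's median log2 difference was 0.448, and in pairs 1 to 3 it was 0.120, 0.35 and 0.851. Prc1, a bundler of the spindle midzone, was at 110, 107 and 41.7 TPM in ENU and 89.9, 82.3 and 22.5 TPM in mock (0.51 ± 0.64). Aurka, the Aurora A kinase, was at 41.2, 41.5 and 13.7 TPM against 35.4, 30.9 and 6.2 TPM (0.55 ± 0.75). Ube2c, which feeds the anaphase-promoting complex, was at 112, 104 and 41.4 TPM against 96.8, 82.6 and 19.5 TPM (0.53 ± 0.70), and Tpx2, a spindle assembly factor, at 71.4, 68.1 and 23.8 TPM against 65.1, 51.6 and 12.1 TPM (0.48 ± 0.73). Of the 25, 17 had an unadjusted p under 0.05 with the block, where the share over all genes was 10.0%, and 0 passed adjustment. Without mock 3 and with no block the difference of these 4 genes turned to between -0.24 and -0.12. Without both libraries numbered 3 it was 0.26 to 0.33, and all 25 genes remained above in both pairs, where 27.3% of all genes did. Replication genes were similar, with 20 of 26 above in all pairs and 0 below (17.7% and 19.6% of all genes) and a median of 0.276. Mcm7, a subunit of the replicative helicase, was at 53.3, 45.1 and 15.0 TPM in ENU and 30.9, 26.5 and 10.2 TPM in mock. Of 24 genes of double-strand break and Fanconi repair, 8 were above in all pairs and 1 below, with a median of 0.029.

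**Figure D4:**
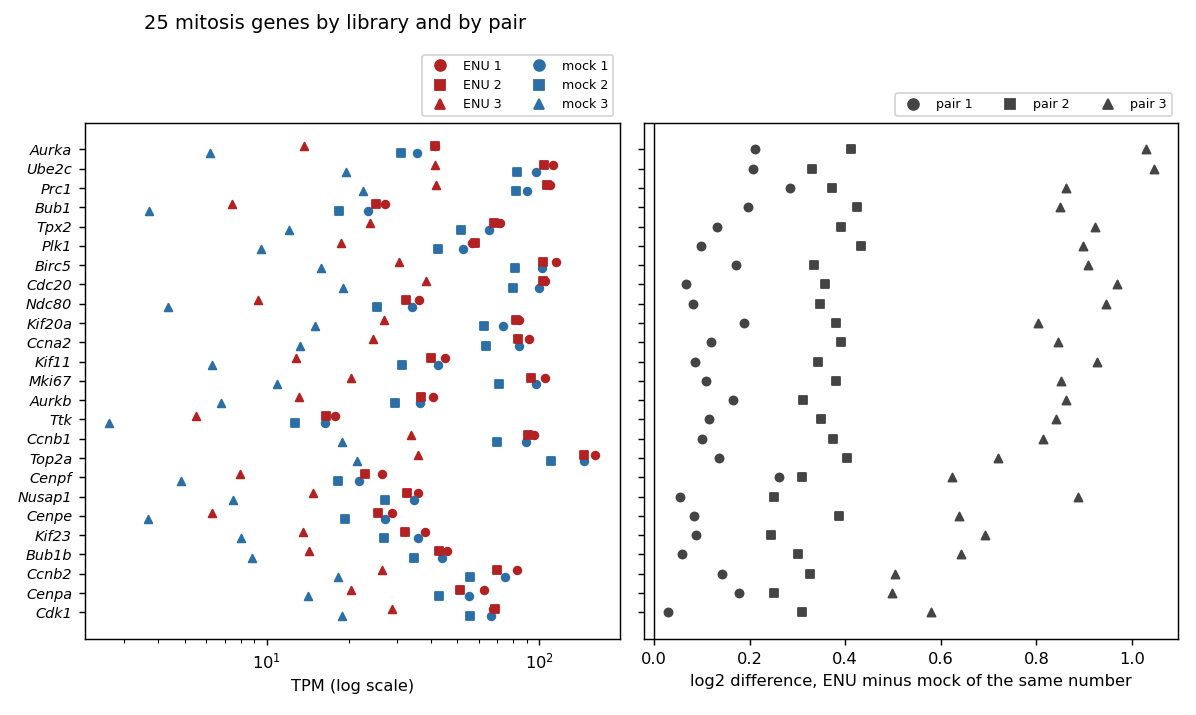
The 25 mitosis genes: TPM (log scale) in each library on the left, with ENU (red) drawn above mock (blue), and the log2 difference within each same-numbered pair on the right. All pair differences are above 0, with list medians of 0.120, 0.35 and 0.851 in pairs 1 to 3.

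The 250 bases before the start of Prc1 and Aurka are shown with capitals at the CCAAT box and the cell cycle element TTTGAA on either strand, letters that are known from promoters of mitotic genes. The windows are chr7:80294201-80294450 (plus strand) and chr2:172370571-172370820 (minus strand).
Prc1: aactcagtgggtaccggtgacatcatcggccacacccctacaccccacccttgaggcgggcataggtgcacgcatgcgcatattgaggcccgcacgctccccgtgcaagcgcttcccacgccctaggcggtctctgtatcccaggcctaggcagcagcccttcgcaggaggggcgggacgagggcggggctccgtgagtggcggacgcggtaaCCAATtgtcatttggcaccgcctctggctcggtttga
Aurka: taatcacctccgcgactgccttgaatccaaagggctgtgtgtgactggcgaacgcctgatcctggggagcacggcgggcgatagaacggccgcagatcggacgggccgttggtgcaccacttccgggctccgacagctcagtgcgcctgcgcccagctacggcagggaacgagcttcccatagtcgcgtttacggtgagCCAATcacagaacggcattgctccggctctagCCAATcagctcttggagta
Prc1 held 1 CCAAT box and Aurka 2, and neither held TTTGAA. Of the 25 mitosis genes, 21 had an entry, 18 of these held a CCAAT box (85.7%) and 7 held TTTGAA (33.3%). Over all entries the shares were 34.5% and 16.3%, and over tested genes with an entry 36.9% and 10.1%. The CCAAT box was not particular to the mitosis genes. It was held by 15 of 21 replication genes with an entry (71.4%). Of 15 cholesterol synthesis genes with an entry, which leaned lower in ENU, 14 held it (93.3%). TTTGAA was held by 14.3% of the replication genes and 6.67% of the cholesterol genes.

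Cholesterol synthesis genes leaned lower. Of 23 tested, 13 were below in all 3 pairs and 0 above (19.6% and 17.7% of all genes). Below without overlap were 3 (4.27% of all genes), and the median was -0.682. The pairs differed: the medians were -0.696, -0.052 and -1.16. Fdft1, which makes squalene, was at 34.9, 36.4 and 15.3 TPM in ENU and 58.6, 42.9 and 45.1 TPM in mock (-0.82 ± 0.35). Msmo1 was at 130, 121 and 43.2 TPM against 212, 139 and 151 TPM (-0.89 ± 0.45), Lss, the lanosterol synthase, at 18.2, 19.3 and 10.3 TPM against 31.6, 20.5 and 21.2 TPM (-0.61 ± 0.29), and Dhcr7, the last enzyme of the path, at 15.3, 14.1 and 11.2 TPM against 29.9, 15.2 and 21.1 TPM (-0.63 ± 0.26). The pair 2 difference was the smallest of the 3 in each of these genes, at -0.232 for Fdft1, -0.195 for Msmo1, -0.083 for Lss and -0.100 for Dhcr7, where the median absolute difference of pair 2 over all genes was 0.113.

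Glycolysis genes were higher in most pairs. Of 20 hypoxia and glycolysis genes, 12 were above in all 3 pairs and 2 below (17.7% and 19.6% of all genes), with a median of 0.232. Ldha, lactate dehydrogenase, was at 2156, 2712 and 2596 TPM in ENU and 1554, 2266 and 1472 TPM in mock (0.52 ± 0.22). Eno1, enolase, was at 2326, 2799 and 2393 TPM against 1682, 2319 and 1704 TPM (0.41 ± 0.19) and was the 1 gene above without overlap. Adm, the peptide adrenomedullin and a hypoxia target, was on the other side at 157, 277 and 134 TPM against 334, 394 and 359 TPM (-1.0 ± 0.28). Among 20 NRF2 antioxidant genes, 3 lay above without overlap and 0 below (2.80% and 4.27% of all genes). They were Pgd, the thioredoxin reductase Txnrd1, at 233, 224 and 541 TPM in ENU and 158, 204 and 196 TPM in mock, and the glutathione reductase Gsr, at 46.8, 37.4 and 38 TPM against 36.2, 34 and 21.0 TPM. The list was above in 3 genes in all pairs and below in 2, where 17.7% and 19.6% of all genes were.

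Genes of the damage response showed small differences. p53 is activated by DNA damage and raises genes of arrest, repair and death. Of 27 targets tested, 5 lay above without overlap and 0 below (2.80% and 4.27% of all genes). In all pairs 9 were above and 5 below (17.7% and 19.6% of all genes), and the median was 0.193. Polk, a polymerase that bypasses damaged bases, was at 15.1, 18.2 and 16.2 TPM in ENU and 5.74, 13.1 and 8.32 TPM in mock (0.86 ± 0.28). Eda2r, a death-domain receptor, was at 26.2, 24.4 and 27.3 TPM against 21.4, 22.9 and 18.7 TPM (0.30 ± 0.11), and Bax, which opens mitochondria, at 262, 260 and 316 TPM against 235, 247 and 233 TPM (0.22 ± 0.11). Sesn1, another target, was lower in each pair at 21.2, 17.4 and 12.6 TPM against 27.9, 20.8 and 25.4 TPM. The arrest gene Cdkn1a was at 314, 320 and 618 TPM in ENU and 278, 339 and 392 TPM in mock, with overlap. Of 20 genes that repair alkylated or oxidised bases, 4 were above in all pairs and 3 below, 0 lay apart without overlap, and the median was -0.013. Mpg, the glycosylase for alkylated bases, was at 25.7, 25.1 and 21.5 TPM against 26.3, 25.6 and 27.3 TPM.

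Senescence markers were above in all pairs in 7 of 13 genes and below in 0 (17.7% and 19.6% of all genes), and 0 lay apart without overlap. Cdkn2a, the p16 and p19 locus, was at 77.3, 86.6 and 114 TPM in ENU and 56.3, 78.1 and 54.0 TPM in mock (0.55 ± 0.20), with ENU 1 below mock 2. The list also holds Mki67, Lmnb1, Ezh2 and Hmgb2, which are lost rather than gained in senescent cells. These 4 were above in all pairs. Of 18 inflammatory secretory genes, 1 was above in all pairs and 2 below, and Il6 stayed at or below 5.58 TPM in ENU and 13.6 TPM in mock. Cxcl5, a chemokine of neutrophils, was at 2.91, 13.8 and 1.17 TPM in ENU and 6.13, 57.3 and 5.24 TPM in mock.

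Genes that carry positional identity also differed between libraries. Hox genes keep the position along the body and limb axes in cultured stromal cells. Hoxd8 was at 21.5, 16.9 and 17.2 TPM in ENU and 34.7, 23.8 and 36.6 TPM in mock (-0.73 ± 0.20), and Hoxd9 at 5.34, 3.51 and 4.26 TPM against 8.40, 6.14 and 10.5 TPM (-0.78 ± 0.23). Hoxb9 was at 6.44, 1.04 and 3.99 TPM in ENU and 0.0828, 0.703 and 0.204 TPM in mock (1.70 ± 0.51). These were the 3 of 35 without overlap, 1 above and 2 below. Such counts are near the shares over all genes, 2.80% above and 4.27% below. Hoxb2 to Hoxb9 together, summed after their values were seen, came to 32.1, 26.1 and 31.6 TPM in ENU 1 to 3 and to 1.62, 29.2 and 3.56 TPM in mock 1 to 3. Mock 2 thus lay with the ENU libraries, while mock 1 and mock 3 held little of this cluster. The iroquois factors Irx3 and Irx5, which also pattern the limb and were named in the same way, were at 42.5, 36.6 and 47.4 TPM and at 15.2, 13.0 and 17.7 TPM in ENU, against 14.5, 31.8 and 15.7 TPM and 4.41, 10.0 and 7.06 TPM in mock. In each of these, too, mock 2 was the mock library nearest to ENU.

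**Figure D5:**
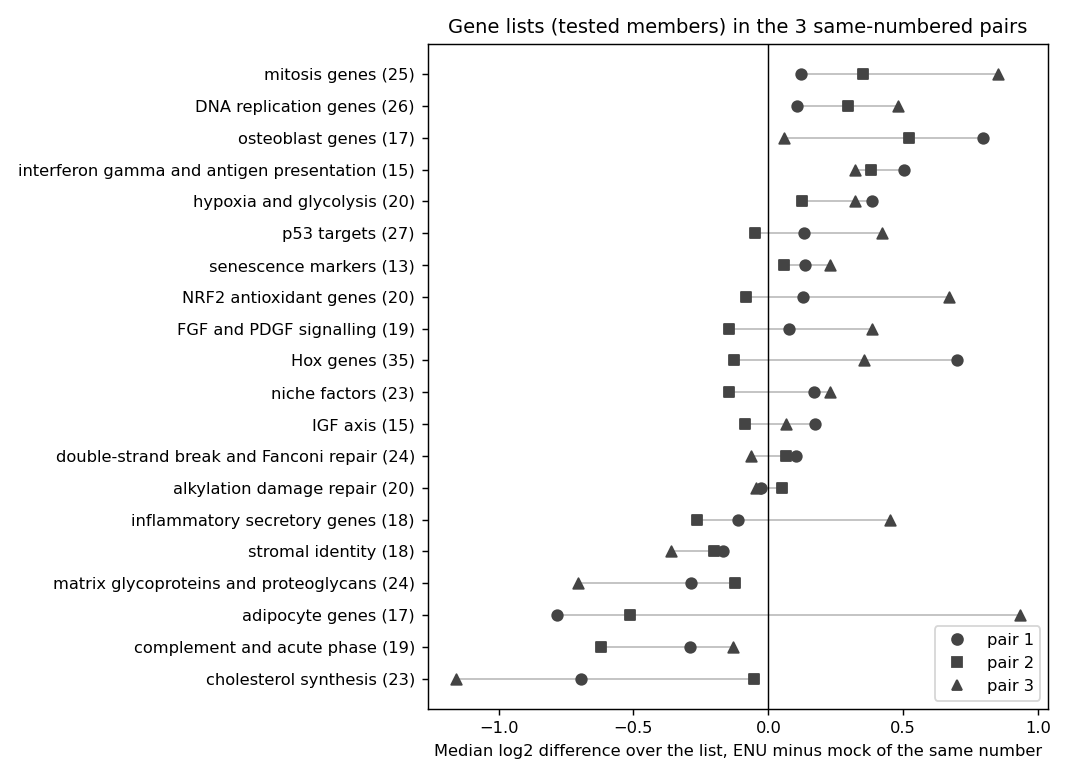
Median log2 difference of 20 gene lists in each same-numbered pair, ENU minus mock, with the number of tested members in brackets. The mitosis, replication, osteoblast, antigen presentation, glycolysis and senescence lists are above 0 in all 3 pairs, the stromal identity, matrix glycoprotein, complement and cholesterol lists are below 0 in all 3, and adipocyte genes run from -0.782 in pair 1 to 0.934 in pair 3.

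Other pathways had members on both sides, where 17.7% of all genes were above in all pairs and 19.6% below. In the Wnt list, 9 of 41 were above in all pairs and 5 below, and only the co-receptor Lrp6 lay apart, at 71.5, 66.3 and 54.8 TPM in ENU and 82.6, 91.6 and 83.1 TPM in mock. In the TGF-beta and BMP list, 3 of 37 were above and 7 below, in the NF-kB list 2 of 18 and 3, and among 29 nuclear genes of oxidative phosphorylation 1 and 5. Of 19 genes of FGF and PDGF signalling, 7 were above and 3 below. Cytosolic ribosomal protein genes took 12.9 ± 1.54% of TPM in ENU and 13.0 ± 1.26% in mock (exact two-sided permutation p = 1.0, n = 3 each). Among the most abundant transcripts, Spp1, osteopontin, was at 17321, 20868 and 31528 TPM in ENU and 8061, 26364 and 19337 TPM in mock, and Fn1, fibronectin, at 6408, 5144 and 17952 TPM against 5294, 6743 and 22050 TPM. The 100 most abundant genes held 29.6 ± 0.887% of TPM in ENU and 28.5 ± 1.25% in mock (exact two-sided permutation p = 0.3, n = 3 each).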

How the data were processed

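RNA sequencing libraries of stromal cells, 3 ENU and 3 mock, were used, and the other 24 libraries of the series were not analysed here. Per the labels' protocols, RNA came from Trizol extraction and libraries from the TruSeq stranded mRNA kit. The submitters' processing notes name mm10 and the programs TopHat, SAMtools, edgeR, bcl2fastq and FastQC. The sources used here do not give their versions, the counting program or the annotation. The authors deposited TPM values for 20619 genes, whose sums per library were 924162 to 939600. Since TPM does not keep the number of reads, depth is unknown and no counting interval is given.

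Groups came from the labels. The 12089 genes at a TPM of at least 1 in at least 3 libraries were fitted in limma 3.58.1 (R 4.3.3; lmFit, then eBayes with trend, two-sided) as log2(TPM + 1), without a block, and p-values were adjusted over all of them by Benjamini-Hochberg at 0.05. Differences on this scale understate the change of genes with low values. For shares of TPM, SciPy 1.17.1 (Python 3.11.15, with pandas 2.3.3) gave exact permutation tests, and matplotlib 3.10.9 drew the figures. Of the tested symbols, 11676 were found in GENCODE M21. On simulated data for this comparison, with 12089 genes of which 200 were changed, limma recovered 40.3%, 67.2% and 84.8% of log2 changes of 1, 2 and 3 without the block, and 58.2%, 85.1% and 89.4% with it. The simulated noise was independent between genes and libraries, and without the block no difference between library numbers was simulated. In the real libraries the number took 71% of the sum of squares. The recovered shares therefore do not give the power of the real comparison.

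Same-numbered libraries deviated together from their group means (r across genes of 0.501, 0.674 and 0.718 for numbers 1 to 3), so the numbers were treated as pairs, although the labels do not say what a number stands for. The comparison and the gene lists were chosen with earlier results of these data known. Named genes are the 8 per direction lowest in unadjusted p among those averaging at least 5 TPM in the higher group, up to 4 per list by the same p, and the 20 most abundant; some genes that meet the rule are not reported here. Genes named outside this rule, after their values were seen, are Cxcl12, Kitl, Csf1, Cd55, Hp, Saa3, Lbp, Alpl, Runx2, Col1a1, Irf1, Cdkn1a, Mki67, Lmnb1, Ezh2, Hmgb2, Il6, Irx3, Irx5 and the marker genes of other cell types. Alternatives were the replicate block, a pseudocount of 0.1, no filter, a filter at 5 TPM, median-of-ratios rescaling, no mean-variance trend and leaving out each library or pair. A term for Y-linked transcripts and a fit without both libraries numbered 3 were chosen after seeing the data.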

Additional observations from a re-analysis of the deposited data

How the results depend on the processing

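No gene passed the threshold in 18 of 20 alternatives, the replicate block among them (0 genes, smallest adjusted p 0.4378 in limma). Leaving out 1 library at a time gave 0 to 3 genes. The 3 came without mock 3 and were the Y-linked Ddx3y (log2 difference 5.964, adjusted p = 0.00269), Uty (4.192, adjusted p = 0.00588) and Kdm5d (4.032, adjusted p = 0.00619), all higher in ENU, since mock 1 and mock 2 alone then stand for the mock group. Without both libraries numbered 3 and with no block, 1 gene passed, Ddx3y (5.85, adjusted p = 0.00812). With a term for Y-linked transcripts 0 genes passed (smallest adjusted p 0.272), 1604 had an unadjusted p under 0.05, and Ddx3y (-0.083) and Kdm5d (-0.37) turned, which follows from the term itself.

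Of 1159 values recomputed for 58 named genes, 1149 kept their direction and their side of the threshold. Apart from the Y-linked genes, the exceptions were 4 mitosis genes that turned lower without mock 3, as ENU 3 then stands without its partner, and were highest without ENU 3. With 1 library left out, the log2 difference ran from -0.124 to 0.958 for Prc1, from -0.185 to 0.981 for Ube2c, from -0.197 to 1.06 for Aurka and from -0.242 to 0.986 for Tpx2. The block changed no other call. Without both libraries numbered 3, 1920 genes lay above and 2159 below without overlap, against 339 and 516 with them, because 2 against 2 libraries overlap less often. Depth is unknown and its effect was not tested, and the difference in Y-linked RNA cannot be told apart from the treatment in numbers 1 and 2.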
